A study of Homo sapiens with 4 samples.

Results

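A set of 43 genes was expressed in the HeyC2 control at 10 FPKM or more and was listed at 0.1 FPKM or less in the SKOV3 control, out of 26506 genes measured in both ovarian cancer lines. FPKM is the number of sequenced fragments divided by transcript length and by the depth of the library. These HeyC2-restricted genes were chosen by the values of the 2 control libraries, so the difference between the controls is a description of the choice and was not tested. The set encoded secreted and matrix proteins, surface receptors, transporters, signalling adaptors best known from blood cells, developmental transcription factors, enzymes, cytoskeletal, scaffold and trafficking proteins (8 genes, the largest group) and noncoding RNAs. Of the 43, 26 were in none of the gene lists used, against 5362 of the 6095 genes with at least 10 FPKM in the HeyC2 control.

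The libraries came from HeyC2 and SKOV3 cells, both established human ovarian cancer lines labelled wild-type. Each line received 3 µg of the pCMV6/TET1 plasmid, in which the viral CMV promoter drives TET1 (TET1-reprogrammed cells), or the same amount of the empty plasmid (control). All cells, controls included, were selected and kept in 400 µg/ml Geneticin. Each of the 4 conditions had 1 library, so the differences below have no replicate check and no p-value was computed. TET1 itself had 0.20 FPKM in the HeyC2 control and 0.52 in HeyC2 TET1, against 0.43 and 1.80 in the matching SKOV3 libraries. Of 15 ovarian carcinoma markers, 7 reached 1 FPKM in each HeyC2 library and 10 and 9 in the SKOV3 control and TET1 libraries, among them the epithelial factor PAX8 (74.59 to 194.74 FPKM). In both HeyC2 libraries 7 of the 15 were at 0.1 FPKM or less, with WT1, MUC16, WFDC2, EMX2 and PGR listed at 0, and in SKOV3 4 were so in the control and 2 with TET1. Of 14 markers of blood cells and fibroblasts, between 1 and 3 reached 1 FPKM in a library, and their summed level was between 2.6 and 5.1 FPKM in HeyC2, 4.2 and 35.7 FPKM in control and TET1-reprogrammed SKOV3 cells. Values of the TET1 libraries are given before the authors' scaling to GAPDH, which had multiplied them by 3.2344 in HeyC2 and 1.3456 in SKOV3.

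TET1 is an enzyme that oxidises the methyl group on cytosines in CpG dinucleotides, the first step towards removing this mark. Methylation of CpG-rich promoters is a well known form of stable gene silencing, and cancer lines of the same tissue commonly differ in the genes they silence.  Methylation and copy number were not measured in these files.

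Sequences of 250 bases upstream of the annotated start are shown for the member with the largest rise in HeyC2 TET1 (GPX3), the member with the lowest log2 fold change on the log2(FPKM + 1) scale (KRTAP2-3), and a member that became detectable in SKOV3 TET1 (COLEC12). They come from RefSeq on GRCh38.p14, are written 5′ to 3′ on the strand of the gene, and each CpG, the dinucleotide that TET1 acts on, is in capitals. The windows are chr18:500702-500951 on the minus strand, chr5:151020341-151020590 on the plus strand and chr17:41060115-41060364 on the minus strand. The mature miR-34a-5p, which is processed from the member MIR34AHG, is shown with its seed (bases 2 to 8) in capitals and lies at chr1:9151735-9151756 on the minus strand.
COLEC12: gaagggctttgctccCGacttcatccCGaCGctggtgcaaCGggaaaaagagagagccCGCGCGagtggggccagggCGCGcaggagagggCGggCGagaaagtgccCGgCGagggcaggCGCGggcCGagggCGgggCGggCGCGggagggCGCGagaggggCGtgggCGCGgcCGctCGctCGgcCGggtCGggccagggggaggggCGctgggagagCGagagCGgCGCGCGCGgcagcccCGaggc
GPX3: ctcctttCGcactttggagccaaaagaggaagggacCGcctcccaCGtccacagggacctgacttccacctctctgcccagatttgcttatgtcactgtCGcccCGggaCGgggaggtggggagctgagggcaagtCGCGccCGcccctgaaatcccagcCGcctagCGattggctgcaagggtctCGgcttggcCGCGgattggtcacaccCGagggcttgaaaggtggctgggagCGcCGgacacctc
KRTAP2-3: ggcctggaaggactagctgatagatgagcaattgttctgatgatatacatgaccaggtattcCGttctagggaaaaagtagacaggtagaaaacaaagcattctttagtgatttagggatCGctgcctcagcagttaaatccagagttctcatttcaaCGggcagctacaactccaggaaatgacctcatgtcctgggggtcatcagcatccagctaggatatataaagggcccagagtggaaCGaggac
hsa-miR-34a-5p: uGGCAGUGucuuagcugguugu

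These 3 upstream windows differed in CpG content, with 38 CpG in COLEC12, 17 in GPX3 and 4 in KRTAP2-3. The 3 genes were picked by their expression, and a relation of CpG content to the direction of change was not tested. A promoter entry (250 bases before and 50 after the start) was matched for 24 of the 43 members. This is 55.8% of them, too few for a check over the set, and the counts that follow describe the matched genes alone. Of the 24, 13 were CpG-rich (GC content of 50% or more and an observed to expected CpG ratio of 0.6 or more), against 61.8% of all 16799 matched genes and 85.7% of the 5014 with at least 10 FPKM in the HeyC2 control. The count of CpG per 300 bases ran from 0 in LINC01021 to 50 in BNC1. LINC01021 was higher in HeyC2 TET1 and BNC1 was within 1.5-fold, while FLNC, which was lower, had 42.

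In the HeyC2 control the 43 genes ranged from 10.06 FPKM (BNC1) to 105.97 FPKM (HCLS1), with a median of 19.3. The annotation of GRCh37 counts 40 of them as protein-coding. In the SKOV3 control 22 were listed at 0 and 21 had values up to 0.10 FPKM. At an estimated depth of 6980000 fragments, these values stood for at most about 5 fragments per gene (FLNC, a long transcript). For the member of median length, 0.1 FPKM was about 2.23 fragments in that library, so the limit does not separate absent from very low RNA. In the plot of levels the 2 control libraries are apart for every member by the rule. In the TET1 libraries, which the rule did not use, every member was also lower in SKOV3 than in HeyC2.

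**Figure D1:**
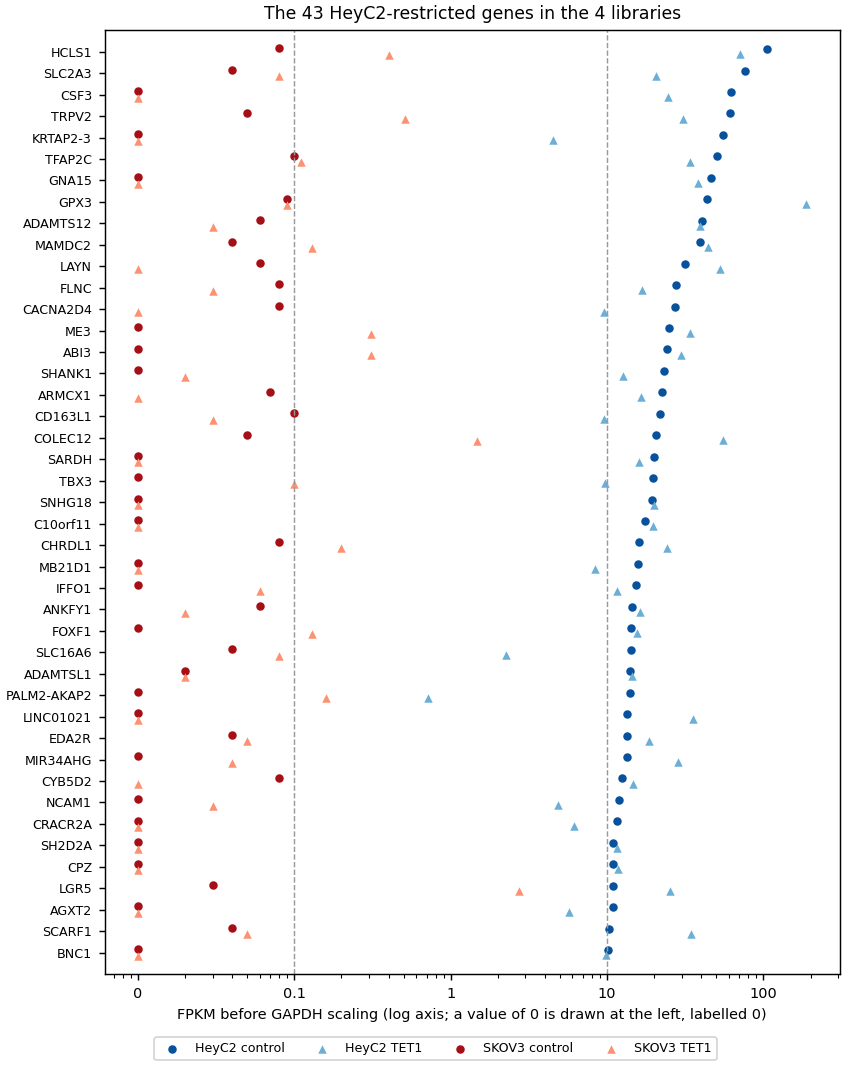
FPKM before GAPDH scaling (log axis, 0 drawn at the left) of the 43 members in the HeyC2 control and TET1 libraries (blue) and the SKOV3 control and TET1 libraries (red). Points are single libraries, dashed lines mark the limits of 0.1 and 10 FPKM that chose the members, and LGR5 and COLEC12 are the 2 members above 1 FPKM in SKOV3 TET1.

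The members just inside the upper limit were BNC1 (10.06 FPKM), SCARF1 (10.26) and AGXT2 (10.83) in the HeyC2 control. Just outside it were FOXL2 (9.90), C20orf197 (9.66) and DEF6 (9.54). Just inside the lower limit were TFAP2C and CD163L1 (both 0.10 FPKM) and GPX3 (0.09) in the SKOV3 control. AEBP1 and CDH5 (both 0.11) lay just outside.

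In HeyC2 TET1, 7 of the 43 genes were at least 1.5-fold higher than in the control and 15 were at least 1.5-fold lower, counted on the log2(FPKM + 1) scale. Over the 6095 genes with at least 10 FPKM in the HeyC2 control, 9.71% were higher and 7.63% lower by this measure. The shares among the members were 16.3% and 34.9%. In the FPKM as deposited, with the GAPDH scaling left in, the direction turned: 35 members were higher and 3 lower. GAPDH lies on the short arm of chromosome 12, and its own log2 fold change in HeyC2 was -1.69 before scaling, against a median of -0.79 for the genes of that arm. The median log2 fold change of the 43 members was -0.05, against 0.00 over those 6095 genes.  A like share past 1.5-fold in either direction was seen among the 103 genes that had at least 10 FPKM in the HeyC2 control and between 0.1 and 1 in the SKOV3 control (48.5%, against 51.2% of the members and 17.3% of all 6095), with 27.2% higher and 21.4% lower. In HeyC2 TET1, 32 of the 43 were at 10 FPKM or more. All 43 were so in the control by the rule, so this number could only fall. In the HeyC2 control 24 were under 20 FPKM, and the like share over the 6095 genes was not computed. In these bulk samples, fewer cells with a transcript and less of it per cell cannot be told apart.

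**Figure D2:**
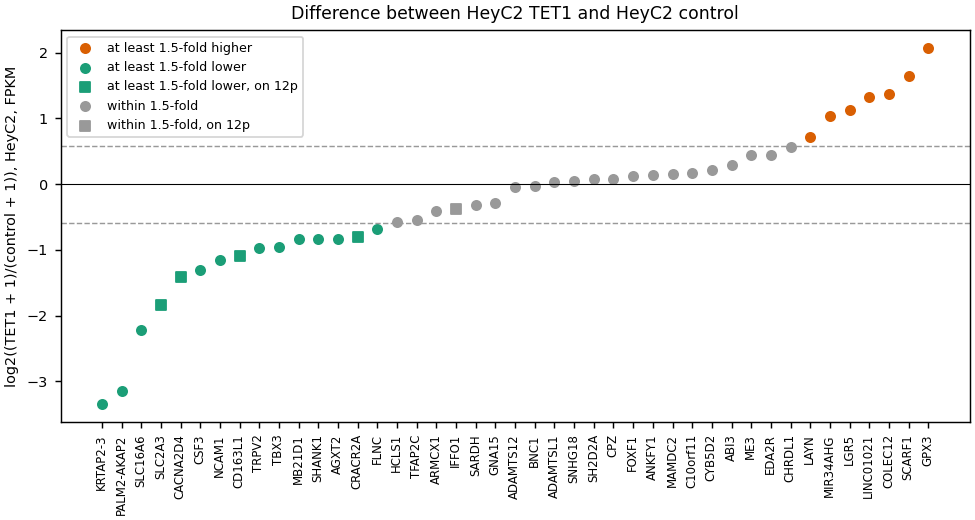
Log2 ratio of HeyC2 TET1 to HeyC2 control (FPKM + 1, before GAPDH scaling) for each member, 1 library per condition, ordered from lowest to highest, with dashed lines at 1.5-fold. The 7 higher members run from LAYN (0.72) to GPX3 (2.07), and the 5 members on the short arm of chromosome 12 (squares) all lie below 0.

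Among secreted and matrix proteins, 1 of 7 was higher and 1 was lower. GPX3, the extracellular glutathione peroxidase that reduces peroxides in plasma (chr5:150400152-150408549, GRCh37), had 43.84 FPKM in the HeyC2 control and 187.66 in HeyC2 TET1, but 0.09 in either SKOV3 library. Its log2 fold change in HeyC2 was 2.07, the largest rise of the set, from about 462 to 1816 estimated fragments, while SKOV3 stayed near 1 fragment. CSF3, the granulocyte colony-stimulating factor (chr17:38171614-38174066), had 62.33 FPKM in the HeyC2 control and 24.47 in HeyC2 TET1 and was listed at 0 in both SKOV3 libraries. Its log2 fold change was -1.31, and its receptor CSF3R was listed at 0 in all 4 libraries. Of the 47 cytokine, chemokine and growth factor genes of at least 10 FPKM in the HeyC2 control, 34.0% were higher and 17% lower in HeyC2 TET1.

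The remaining secreted members moved by less than 1.5-fold in HeyC2 on the log2(FPKM + 1) scale. Values are given for the control and then the TET1 library of a line where a pair stands. ADAMTS12, a secreted metalloprotease of the matrix, had 40.59 and 39.28 FPKM in HeyC2 and 0.06 and 0.03 in SKOV3. ADAMTSL1, a related matrix protein without the protease domain, had 14.11 and 14.40 FPKM in HeyC2 and 0.02 in each SKOV3 library. Both were thus near level in HeyC2 and at 4 estimated fragments or fewer in SKOV3. CHRDL1, a secreted antagonist of bone morphogenetic proteins, had 15.92 and 24.08 FPKM in HeyC2 and 0.08 and 0.20 in SKOV3. At 1.48-fold higher in HeyC2 it lay just inside the limit, and with a pseudocount of 0.1 it passed it (log2 fold change 0.59). MAMDC2, an extracellular proteoglycan, had 39.43 and 44.04 FPKM in HeyC2 and 0.04 and 0.13 in SKOV3. The carboxypeptidase CPZ, which binds Wnt proteins, had 10.96 and 11.67 FPKM in HeyC2 and was listed at 0 in SKOV3.

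Of 7 surface receptors, a group assigned after values were seen, 4 were at least 1.5-fold higher and 2 lower. On the list of receptors and adhesion molecules the members were CD163L1 and NCAM1, both lower, and of its 88 genes of at least 10 FPKM in the HeyC2 control 20.5% were higher and 19.3% lower. LGR5, the R-spondin receptor that strengthens Wnt signalling and marks stem cells of the intestine (chr12:71833578-71980090), had 10.91 FPKM in the HeyC2 control and 25.07 in HeyC2 TET1, against 0.03 and 2.75 in the matching SKOV3 libraries. It was higher in the TET1 library of both lines, with log2 fold changes of 1.13 and 1.86. The related receptor LGR4 had 17.54 and 15.23 FPKM in HeyC2 and 23.23 and 22.88 in SKOV3. COLEC12, a scavenger receptor of the collectin family (chr18:316737-500722), had 20.50 and 54.72 FPKM in HeyC2 and 0.05 and 1.47 in SKOV3. Its log2 fold changes were 1.37 and 1.23. Because 1 was added to each FPKM, the SKOV3 fold changes of LGR5 and COLEC12 are compressed. Their sizes cannot be set against those in HeyC2.

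SCARF1, a scavenger receptor for modified lipoproteins (chr17:1537152-1549038), had 10.26 FPKM in the HeyC2 control and 34.21 in HeyC2 TET1, but 0.04 and 0.05 in the SKOV3 libraries. LAYN, the hyaluronan receptor layilin, had 31.46 and 52.41 FPKM in HeyC2 and 0.06 and 0 in SKOV3. In contrast to LGR5 and COLEC12, SCARF1 and LAYN were higher in HeyC2 TET1 with no more than 1.1 estimated fragments in SKOV3 TET1. NCAM1, the neural cell adhesion molecule, was lower in HeyC2 TET1, at 4.83 FPKM against 11.90 in the control, and had 0 and 0.03 in SKOV3. CD163L1, a scavenger receptor with cysteine-rich domains, had 21.66 and 9.57 FPKM in HeyC2 and 0.10 and 0.03 in SKOV3. EDA2R, the receptor for the A2 form of ectodysplasin, had 13.39 and 18.46 FPKM in HeyC2 and 0.04 and 0.05 in SKOV3, within 1.5-fold in HeyC2.

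All 4 transporters and channels were at least 1.5-fold lower in HeyC2 TET1, and 2 of them (SLC2A3 and CACNA2D4) lie on the short arm of chromosome 12, where 65.3% of genes were lower. Over the list of channels and solute transporters, 142 genes had at least 10 FPKM in the HeyC2 control, of which 12.7% were lower and 12% higher. SLC2A3, the high-affinity glucose transporter GLUT3 (chr12:8071826-8171603), had 76.31 FPKM in the HeyC2 control and 20.65 in HeyC2 TET1, with 0.04 and 0.08 in SKOV3. Its log2 fold change was -1.84. The widely expressed glucose transporter SLC2A1 had 110.80 and 118.71 FPKM in HeyC2 and 106.97 and 50 in SKOV3. SLC2A14, a close copy of SLC2A3 with which reads can be shared, had at most 0.12 FPKM in any library.

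SLC16A6, a transporter of the monocarboxylate family, had 14.13 FPKM in the HeyC2 control and 2.25 in HeyC2 TET1, and 0.04 and 0.08 in SKOV3. CACNA2D4, an auxiliary subunit of voltage-gated calcium channels, had 27.14 and 9.59 FPKM in HeyC2 and 0.08 and 0 in SKOV3. Both were thus lower in HeyC2 TET1 and at fewer than 3 estimated fragments in each SKOV3 library. TRPV2, a calcium-permeable cation channel (chr17:16318885-16340317), had 60.82 and 30.49 FPKM in HeyC2 and 0.05 and 0.51 in SKOV3. It was the only transporter or channel of the set above 0.1 FPKM in SKOV3 TET1, at about 8.8 fragments.

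Another 6 members encode signalling proteins, mostly best known from blood cells, and 2 of them (CRACR2A and MB21D1) were lower in HeyC2 TET1. They were grouped after values were seen, none is in a gene list, and CRACR2A lies on the short arm of chromosome 12. HCLS1, a cortactin-related actin regulator of lymphocytes and the most abundant member (chr3:121350246-121379774), had 105.97 and 70.70 FPKM in HeyC2 and 0.08 and 0.40 in SKOV3. At 1.49-fold lower in HeyC2 it lay just inside the 1.5-fold limit. GNA15, a G protein alpha subunit of blood cells, had 46.19 and 37.95 FPKM in HeyC2 and was listed at 0 in SKOV3. ABI3, a component of the WAVE actin complex, had 24.12 and 29.72 FPKM in HeyC2 and 0 and 0.31 in SKOV3. The pan-leukocyte gene PTPRC, by comparison, had at most 0.28 FPKM in any library, and 0.09 in the HeyC2 control.

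SH2D2A, a T cell adaptor, had 10.97 and 11.62 FPKM in HeyC2 and was listed at 0 in SKOV3. CRACR2A, which regulates store-operated calcium channels, had 11.49 and 6.13 FPKM in HeyC2 and was listed at 0 in SKOV3. MB21D1, the cytosolic DNA sensor cGAS, had 15.71 and 8.31 FPKM in HeyC2 and was also listed at 0 in both SKOV3 libraries. These 3 genes thus had no value above 0 in SKOV3 under either plasmid. TMEM173, the adaptor STING that acts downstream of cGAS, was present in both lines, at 56.24 and 60.54 FPKM in HeyC2 and 17.35 and 21 in SKOV3.

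Of the 4 transcription factors, TBX3 was lower in HeyC2 TET1 and the other 3 were within 1.5-fold. TFAP2C, an AP-2 factor of trophoblast and germ cells, had 50.25 and 34.11 FPKM in HeyC2 and 0.10 and 0.11 in SKOV3. Its relative TFAP2A had the opposite distribution, with 0.89 and 0.74 FPKM in HeyC2 and 20.60 and 14.95 in SKOV3. TBX3, a T-box factor of limb and mammary development, had 19.70 and 9.66 FPKM in HeyC2 and 0 and 0.10 in SKOV3. FOXF1, a forkhead factor of mesenchyme, had 14.30 and 15.58 FPKM in HeyC2 and 0 and 0.13 in SKOV3. BNC1, the zinc finger protein basonuclin, had 10.06 and 9.82 FPKM in HeyC2 and was listed at 0 in SKOV3. Over the list of homeobox and lineage factors, 73 genes had at least 10 FPKM in the HeyC2 control, of which 26% were lower and 9.59% higher in HeyC2 TET1.

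Enzymes were mostly level in HeyC2, with AGXT2 the exception. ME3, the mitochondrial NADP-dependent malic enzyme, had 24.80 and 33.94 FPKM in HeyC2 and 0 and 0.31 in SKOV3. SARDH, the mitochondrial sarcosine dehydrogenase, had 19.89 and 15.90 FPKM in HeyC2 and was listed at 0 in SKOV3. AGXT2, a mitochondrial aminotransferase, had 10.83 and 5.67 FPKM in HeyC2 and was listed at 0 in SKOV3. Of these enzymes ME3 was thus the only one above 0.1 FPKM in SKOV3 TET1.

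Of 8 cytoskeletal, scaffold and trafficking genes, also grouped after values were seen, 4 were lower in HeyC2 TET1 and none higher. KRTAP2-3 alone was on the list of cytoskeletal genes, where 19.4% of 62 genes of at least 10 FPKM in the HeyC2 control were lower and 14.5% higher. KRTAP2-3, a hair keratin-associated protein (chr17:39215492-39216366), had 54.77 FPKM in the HeyC2 control and 4.52 in HeyC2 TET1 and was listed at 0 in both SKOV3 libraries. Its log2 fold change was -3.34, the lowest of the set with a pseudocount of 1, but PALM2-AKAP2 was lower with 0.1 (-4.13 against -3.57). The neighbouring family member KRTAP2-1 had 14.55 and 0.77 FPKM in HeyC2 and 0.23 and 0 in SKOV3, while KRTAP2-2 and KRTAP2-4 were listed at 0 throughout. These genes are near-identical copies, so how reads were divided among them is uncertain.

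PALM2-AKAP2, a readthrough gene of the paralemmin and A-kinase anchor genes, had 14.06 FPKM in the HeyC2 control and 0.71 in HeyC2 TET1, and 0 and 0.16 in SKOV3. Its log2 fold change in HeyC2 was -3.14. It shares exons with PALM2 (0.92 and 0.07 FPKM in HeyC2) and with AKAP2 (37.98 and 46.90 in HeyC2, 11.59 and 8.09 in SKOV3), so its own level is uncertain. FLNC, the muscle filamin, had 27.41 and 16.69 FPKM in HeyC2 and 0.08 and 0.03 in SKOV3. The other filamins were abundant in both lines, with FLNA at 239.32 FPKM in the HeyC2 control and 659.61 in the SKOV3 control. SHANK1, a scaffold of neuronal synapses, had 23.19 and 12.56 FPKM in HeyC2 and 0 and 0.02 in SKOV3. ARMCX1, IFFO1, ANKFY1 and C10orf11 were within 1.5-fold in HeyC2, with log2 fold changes between -0.41 and 0.17, and none exceeded 0.06 FPKM in SKOV3 TET1.

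Noncoding RNAs were level or higher in HeyC2 TET1. LINC01021, also named PURPL (chr5:27217821-27497978), had 13.49 FPKM in the HeyC2 control and 35.49 in HeyC2 TET1 and was listed at 0 in both SKOV3 libraries. MIR34AHG, the host transcript of miR-34a (chr1:9208070-9258965), had 13.39 and 28.37 FPKM in HeyC2 and 0 and 0.04 in SKOV3. The row of the hairpin gene MIR34A itself was listed at 0 in all libraries, and the mature miRNA shown above was not measured by this assay. SNHG18, a host transcript of a small nucleolar RNA, had 19.34 and 20.05 FPKM in HeyC2 and was listed at 0 in SKOV3. Of 87 noncoding genes of at least 10 FPKM in the HeyC2 control, 27.6% were higher and 5.75% lower in HeyC2 TET1.

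In SKOV3 TET1, 11 of the 43 members (25.6%) exceeded 0.1 FPKM. Among all 11306 genes at 0.1 FPKM or less in the SKOV3 control, 13.7% did so. That background is made mostly of genes that HeyC2 lacked too. Of the 10262 genes at or under 0.1 FPKM in both controls 10.4% exceeded 0.1 FPKM in SKOV3 TET1. The share was 46.1% of 726 genes with 0.1 to 1 FPKM in the HeyC2 control and 50.2% of 275 genes with 1 to 10. These groups differed in the SKOV3 control too, where 48.8% of the members but 6.37% of the 10262 genes were above 0. Among genes listed at 0 in the SKOV3 control, 4 of 22 members (18.2%) and 10.4% of 10357 genes exceeded 0.1 FPKM with TET1. Among those above 0, 7 of 21 members (33.3%) and 50.4% of 949 genes did. At 1 FPKM or more there were 2 members (4.65%), against 1.88% of the 11306 genes, 5.65% of those with 0.1 to 1 FPKM and 17.1% of those with 1 to 10 FPKM in the HeyC2 control.

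**Figure D3:**
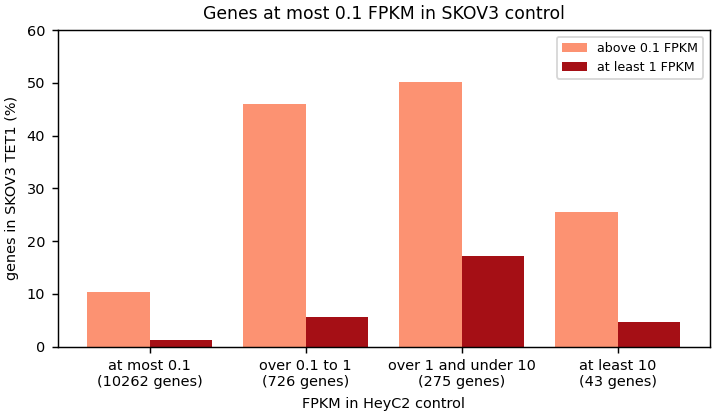
Percent of genes at 0.1 FPKM or less in the SKOV3 control that were above 0.1 FPKM (light bars) or at 1 FPKM or more (dark bars) in SKOV3 TET1, by level in the HeyC2 control. Bars are shares of single-library values without error, and the rightmost pair is the 43 HeyC2-restricted genes (25.6% and 4.65%).

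LGR5 had the highest level in SKOV3 TET1, at 2.75 FPKM or about 79.5 fragments, 25.2% of its level in the HeyC2 control. COLEC12 followed with 1.47 FPKM, about 53.5 fragments and 7.18% of its HeyC2 control level. Both were also among the 7 members that were higher in HeyC2 TET1. TRPV2 (0.51 FPKM) and HCLS1 (0.40) came next, with about 8.8 and 4.8 fragments. They reached 0.843% and 0.379% of their HeyC2 control levels.

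The other 7 members above the limit lay between 0.11 FPKM (TFAP2C) and 0.31 FPKM (ME3 and ABI3). PALM2-AKAP2 stood for about 8 fragments, CHRDL1 for 4.9, ME3 for 4.4 and ABI3 for 3. FOXF1 (2.8), MAMDC2 (2.6) and TFAP2C (2) were under 3 fragments, and TFAP2C was already at 0.10 in the control. TBX3 lay at the limit, with 0.10 FPKM. Counts this low carry a large counting error, and apart from LGR5 and COLEC12 no member had 10 fragments in SKOV3 TET1.

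**Figure D4:**
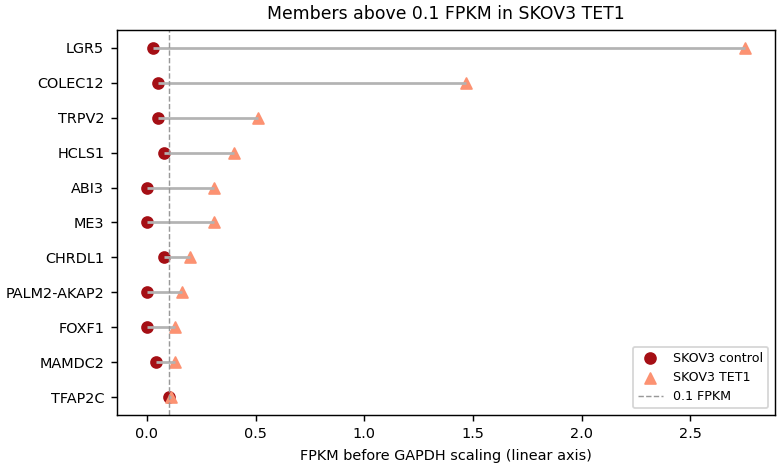
FPKM before GAPDH scaling (linear axis) in the SKOV3 control (circles) and SKOV3 TET1 (triangles) for the 11 members above 0.1 FPKM in SKOV3 TET1, 1 library each. LGR5 (2.75) and COLEC12 (1.47) stand apart, and the other 9 lie between 0.11 and 0.51.

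In SKOV3 TET1 17 members were listed at 0, of which 13 were at 0 in both SKOV3 libraries. A count of 0 allows up to 3 fragments, which for these 17 ranged from 0.0896 to 0.635 FPKM depending on transcript length. Members at 0 in the SKOV3 control could not be lower with TET1. Of the 21 members above 0 there, 12 had a higher value in SKOV3 TET1 and 9 a lower one, against 590 and 359 of the 949 such genes among the 11306. Of 9 members over 40 FPKM in the HeyC2 control, 3 were listed at 0 in SKOV3 TET1 and none exceeded 0.843% of its HeyC2 control level. The markers of blood cells and fibroblasts were also higher in SKOV3 TET1 (35.7 against 4.2 FPKM summed), of which COL1A1 made 27.66, and their part in these values was not tested.

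The members lay on 17 chromosomes, with 8 on chromosome 17 and 7 on chromosome 12. These were 1.79% and 2.02% of the genes there with at least 10 FPKM in the HeyC2 control. Over all 6095 such genes the share was 0.705%. Of the 95 genes on the short arm of chromosome 12 with at least 10 FPKM in the HeyC2 control, 5 (5.26%) were members. They were CACNA2D4, CRACR2A, IFFO1, CD163L1 and SLC2A3. All 5 had log2 fold changes below 0 in HeyC2 TET1, from -1.84 to -0.38, and 4 were at least 1.5-fold lower. The whole arm was lower, however, with 65.3% of those 95 genes at least 1.5-fold lower and a median log2 fold change of -0.79. On the long arm of the chromosome 6.75% of 252 genes were lower. Without the 5 genes, 11 of 38 members were lower and 7 higher, and the median log2 fold change was 0.04. CD163L1 and SLC2A3 had no other gene of 1 FPKM or more between them in the HeyC2 control.

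CYB5D2, a haem-binding protein of the cytochrome b5 type, and ANKFY1, an endosomal protein that binds the GTPase Rab5, were the other adjacent pair. They lie on opposite strands of chromosome 17 with overlapping annotations (chr17:4046462-4090605 and chr17:4067115-4167290, GRCh37). CYB5D2 had 12.40 and 14.64 FPKM in HeyC2 and 0.08 and 0 in SKOV3. ANKFY1 had 14.53 and 16.15 FPKM in HeyC2 and 0.06 and 0.02 in SKOV3. The counting is not stated to use strand, so reads from their overlap cannot be told apart. Both were thus level in HeyC2 and near 0 in SKOV3. The next genes on either side were present in SKOV3, with ZZEF1 at 5.71 and 10.41 FPKM and UBE2G1 at 2.90 and 6.5 in its control and TET1 libraries.

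**Figure D5:**
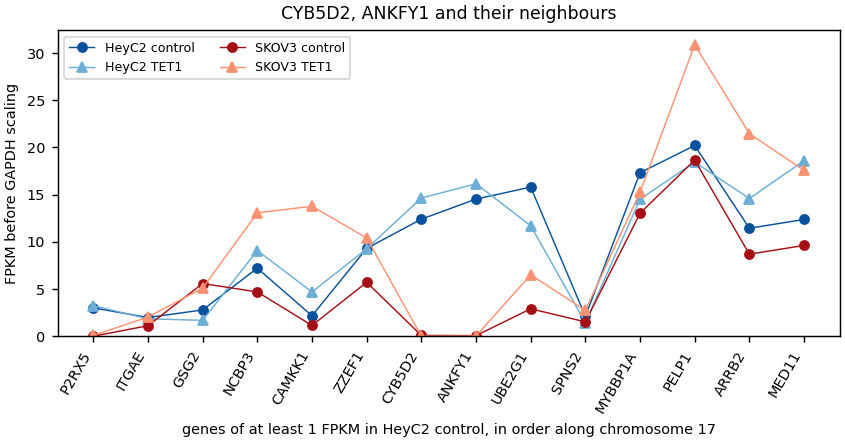
FPKM before GAPDH scaling (linear axis from 0) in the 4 libraries for genes of at least 1 FPKM in the HeyC2 control, in their order along chromosome 17. Points are single libraries joined by lines for reading, and the SKOV3 values drop to 0.08 or less at CYB5D2 and ANKFY1 between ZZEF1 (5.71 in the control) and UBE2G1 (2.90). P2RX5, at the left end, was also low in SKOV3 (0 in the control and 0.08 with TET1), against 3.00 in the HeyC2 control.

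For all 43 members the nearest gene of at least 1 FPKM in the HeyC2 control was taken on each side, 86 neighbours in all. Of these, 4 were members themselves, which the rule holds at 0.1 FPKM or less. Of the other 82 neighbours, 69 (84.1%) also had 1 FPKM or more in the SKOV3 control, against 92.2% of all genes of at least 1 FPKM in the HeyC2 control, and 5 were at 0.1 FPKM or less. Both neighbours were present at 1 FPKM or more for 27 of the 43 members.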

How the data were processed

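RNA sequencing of 4 libraries, 1 per group, was used. The authors prepared paired-end TruSeq libraries, aligned the reads to hg19 with Bowtie2 2.2.6 and quantified genes with RSEM 1.2.17. The deposited values are FPKM, and the authors had multiplied each TET1 library so that GAPDH equalled its control. The factors (3.2344 and 1.3456) were recovered from the 0.01 FPKM grid of values under 40 FPKM and removed. The annotation used by the authors is not given in the sources used here.

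Log2 fold changes used log2(FPKM + 1), and 1.5-fold in either direction was counted. Depth is not given with FPKM. It was estimated from the spacing of low values as 6520000 to 7260000 fragments, and fragments per gene used GENCODE transcript lengths less 150 bases; these are approximate and cover counting error only. Positions came from GENCODE on GRCh37, where 39 members matched by symbol and 4 by a newer symbol. Promoter and miRNA sequences came from RefSeq on GRCh38.p14.

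The members, gene lists and tests were chosen with earlier results of these data known, and the role groups were assigned after values were seen. Named genes were TET1, GAPDH, all members, the genes nearest each limit, and relatives or neighbours of members, the last chosen after their values were seen. A further gene that the rule names beside the lower limit is not reported here. Besides those named in the text, the gene lists covered proteases, matrix, receptors, cytoskeleton, redox metabolism, germline, neuronal, interferon, ZNF, EMT, epithelial, tumour suppressor, ovarian methylation, ovarian marker, TET family and housekeeping genes. On data made from the HeyC2 control, 200 of 200 planted changes were called with 0 others among 26506 genes. The planted changes were of a fixed size beyond the 1.5-fold limit and no noise was added. The result therefore checks the calculation and gives no rate of false calls between single libraries. Of the alternatives, 15 were set in advance and 2 were added after the data were examined. Calculations used Python 3.11.15, numpy 2.4.6, pandas 2.3.3 and matplotlib 3.10.9.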

Additional observations from a re-analysis of the deposited data

Results flagged for a closer look

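Of the 15 members at least 1.5-fold lower in HeyC2 TET1, 2 passed from under to over 0.1 FPKM with TET1 in SKOV3. Of all 43 members, 11 did so. By sign alone, whatever the size, 14 of the 43 members differed in direction between the lines. The rule limits this count, since the 22 members at 0 in the SKOV3 control could not be lower with TET1. Most SKOV3 signs rest on very few fragments, and the like count over other genes was not computed. In SKOV3 TET1, 21 members (48.8%) were higher and 9 (20.9%) lower than in its control. Among all genes at 0.1 FPKM or less in the SKOV3 control, 18.7% were higher and 3.18% lower. Both shares were larger among the members, which were also more often above 0 in that control. TRPV2 had a log2 fold change of -0.97 in HeyC2 TET1 (60.82 to 30.49 FPKM), while in SKOV3 it went from 0.05 to 0.51 FPKM. PALM2-AKAP2 had -3.14 in HeyC2 (14.06 to 0.71 FPKM) and went from 0 to 0.16 FPKM in SKOV3. With 1 library per condition the difference between the lines was not tested. The SKOV3 values stood for about 8.8 and 8 fragments, and PALM2-AKAP2 shares exons with AKAP2 and PALM2.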

How the results depend on the processing

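No paired analysis was possible because each group has 1 library and no test was made. The result that depended most on the processing was the direction in HeyC2: in FPKM as deposited, with the GAPDH scaling, 35 members were higher and 3 lower, and the median log2 fold change was 1.57. In those values CSF3 (0.34), TRPV2 (0.69), FLNC (0.95), CACNA2D4 (0.19), SHANK1 (0.78), CD163L1 (0.50), TBX3 (0.64), MB21D1 (0.74), NCAM1 (0.37), CRACR2A (0.74) and AGXT2 (0.71) changed from lower to higher. Pseudocounts of 0.1 and 0.01 gave 8 higher and 15 lower, and median centring gave 7 and 15. PALM2-AKAP2 moved from -3.14 to -4.13 and -4.29 with these pseudocounts and to -3.65 in TPM, below KRTAP2-3 (-3.57, -3.60 and -3.53). A limit of 2-fold left 6 higher and 8 lower, and 1.2-fold gave 11 and 21.

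The number of members followed the limits. It was 93 at 5 FPKM and 19 at 20 FPKM in the HeyC2 control, and 31 at 0.05 FPKM, 22 at 0 and 105 at 0.5 FPKM in the SKOV3 control. With these choices, in the same order, the numbers higher in HeyC2 TET1 were 11, 3, 5, 2 and 24, those lower were 35, 8, 12, 9 and 28, the medians were -0.35, -0.55, -0.03, -0.29 and -0.02, and those detectable in SKOV3 TET1 were 34, 7, 8, 4 and 61. In TPM, where the same limits admit lower values, there were 65 members, 6 higher, 27 lower, a median of -0.44 and 31 detectable.

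Detection in SKOV3 TET1 counted 26 members above 0 FPKM, 3 at 0.5 FPKM or more and 2 at 1 FPKM or more. It counted 15 in FPKM as deposited and, by a choice added after the data were examined, 8 with at least 3 estimated fragments and more than in the control. Leaving out the members on the short arm of chromosome 12 was also added after the data were examined, and its values stand in the text. Depth limits the SKOV3 values, since 0.1 FPKM was 0.51 to 6.62 fragments in the SKOV3 control.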

Other observations

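The converse set, of at least 10 FPKM in the SKOV3 control and at most 0.1 FPKM in the HeyC2 control, held 107 genes. In HeyC2 TET1 38 of them (35.5%) exceeded 0.1 FPKM and 7 reached 1 FPKM, against 8.55% above 0.1 FPKM among all 12306 genes at or under 0.1 FPKM in the HeyC2 control. Unlike the background of the members, these 12306 genes were not divided by their level in either control. The 35.5% and 8.55% are therefore not matched for expression. In SKOV3 TET1 27.1% of the 107 genes were at least 1.5-fold higher and 19.6% lower, against 13.3% and 16.8% of the 6703 genes of at least 10 FPKM in the SKOV3 control. These shares come from 1 library per condition and were not tested.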
